A study of Mus musculus with 14 samples.

Results

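SIM2 sites in mouse embryonic stem (ES) cells that carried a NANOG peak, but neither an OCT4 peak nor a peak of the Mediator subunits MED1 and MED12, were described. They are called NANOG-alone sites. FLAG ChIP-seq peaks of 3 clones that express Sim2 (A6, B8, C4) were merged when their centres lay within 100 bp, and a merged site was kept when it held peaks of at least 2 clones and no peak centre of the EB3 control within 100 bp. Each site was the 100 bp around its mean centre. A factor was taken as present when its peak lay within 100 bp of those 100 bp. The sites were therefore chosen by the presence of called peaks in these lists. By this rule 362 of the 1229 SIM2 sites (29.5%, 95% Wilson interval 27 to 32.1%) were NANOG-alone sites. The others were 365 sites with MED1 or MED12, 289 with NANOG and OCT4 but no Mediator, 205 with none of the 4 factors and 8 with OCT4 alone. The intervals given here cover counting error only.

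SIM2 is encoded on the human chromosome that is present in an extra copy in Down syndrome, and the study mapped where a tagged copy of the protein sits on chromatin. A6, B8 and C4 are separate clonal lines that express Sim2 with a FLAG tag from a tetracycline-controlled promoter at the ROSA26 locus, so each clone is 1 line with an added transgene. EB3 is the parental ES line without it. All cultures had been induced for 26 h, FLAG ChIP was done once in each line, and the NANOG, OCT4, MED1 and MED12 ChIP used here were done once, in A6. The factor lists therefore have no replicate, and the 3 clones are the replicates of SIM2 alone. The study also did ChIP of these factors in EB3 and of SOX2 in A6 and EB3, which are not used here. SOX2 was not part of the rule, so a NANOG-alone site may hold SOX2.

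SIM2 is a bHLH-PAS transcription factor that binds DNA with a partner such as ARNT, and such dimers are known for short elements with an ACGTG core. NANOG is a homeodomain factor and OCT4 a POU factor, and together with SOX2 they hold ES cells in the pluripotent state. OCT4 and SOX2 commonly bind side by side on a composite motif. Mediator is a large complex that bridges enhancer-bound factors and the polymerase, and dense Mediator marks the strongest enhancers of ES cells.

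The sequences of the sites are shown first for the NANOG-alone sites with the best SIM2 signal, those found in all 3 clones with the lowest mean rank of normalized tag count over the 3 lists. Each line gives the 100 bp of the site on the plus strand of mm9 (NCBIM37) from 5′ to 3′, under the name of the gene with the nearest start. Capitals mark matches, on either strand, to the motif patterns described with the sequence results.
Elf3 site (chr1:137114310-137114409): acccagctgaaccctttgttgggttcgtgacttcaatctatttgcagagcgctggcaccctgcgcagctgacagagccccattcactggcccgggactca
Ccdc3 site (chr2:5038229-5038328): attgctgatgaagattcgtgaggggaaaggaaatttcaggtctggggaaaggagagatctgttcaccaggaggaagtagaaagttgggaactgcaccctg
Ckap4 site (chr10:84017503-84017602): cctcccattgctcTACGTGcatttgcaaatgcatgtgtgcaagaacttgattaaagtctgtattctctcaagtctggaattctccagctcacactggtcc
Spata13 site (chr14:61173210-61173309): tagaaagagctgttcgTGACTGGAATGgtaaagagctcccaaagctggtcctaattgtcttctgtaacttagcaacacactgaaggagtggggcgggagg
Zc3h3 site (chr15:75681404-75681503): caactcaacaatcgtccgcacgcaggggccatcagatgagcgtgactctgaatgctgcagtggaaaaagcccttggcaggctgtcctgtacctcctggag
Hmcn2 site (chr2:31278351-31278450): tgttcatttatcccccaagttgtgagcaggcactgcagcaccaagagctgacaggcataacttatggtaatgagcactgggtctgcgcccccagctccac
In 4 of these 6 sites, those of Elf3, Ccdc3, Zc3h3 and Hmcn2, no pattern matched within the 100 bp. The Ckap4 site held TACGTG, an element known for SIM and ARNT dimers. The Spata13 site held the second motif of the study, which overlapped a TEAD pattern.

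The 3 NANOG-alone sites with the highest NANOG tag counts are shown next, as the strongest NANOG peaks within the class. Over all NANOG peaks without OCT4 or Mediator the tag count reached 49.6.
Cspg5 site (chr9:110108702-110108801): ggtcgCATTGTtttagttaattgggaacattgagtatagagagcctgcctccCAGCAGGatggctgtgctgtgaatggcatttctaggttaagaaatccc
Barx2 site (chr9:31783911-31784010): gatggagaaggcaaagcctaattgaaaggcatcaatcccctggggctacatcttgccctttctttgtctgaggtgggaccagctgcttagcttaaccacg
Myo5a site (chr9:74933344-74933443): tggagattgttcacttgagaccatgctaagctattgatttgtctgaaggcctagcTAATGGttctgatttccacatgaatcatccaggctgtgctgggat
The site nearest to the start of Cspg5 lay in an intron of Smarcc1 and held a SOX and a ZIC pattern. The Myo5a site, also intronic, held the homeodomain pattern, and the Barx2 site held none.

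TACGTG occurred in 16 of the NANOG-alone sites when 200 bp were searched. Among these 16, the 4 sites with the highest SIM2 tag count in A6 are shown, and each held it once. The first of these 4 was the Ckap4 site above, and the others are these.
Ccdc90a site (chr13:43680872-43680971): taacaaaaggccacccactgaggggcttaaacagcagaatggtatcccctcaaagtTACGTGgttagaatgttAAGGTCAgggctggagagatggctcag
Kif13b site (chr14:65259354-65259453): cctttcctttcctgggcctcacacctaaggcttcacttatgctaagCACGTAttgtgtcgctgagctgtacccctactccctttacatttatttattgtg
Gpt2 site (chr8:87997226-87997325): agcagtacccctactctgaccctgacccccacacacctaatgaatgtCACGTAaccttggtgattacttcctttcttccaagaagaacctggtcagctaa
The Ccdc90a site also held an ESRRB pattern. At the Gpt2 site the nearest OCT4 or Mediator peak lay only 147 bp away.

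A ZIC and an ESRRB pattern occurred together within the 100 bp of 4 NANOG-alone sites. The 3 with the highest SIM2 tag count in A6 were chosen after their sequences had been seen, to show both patterns side by side.
Agpat3 site (chr10:77828362-77828461): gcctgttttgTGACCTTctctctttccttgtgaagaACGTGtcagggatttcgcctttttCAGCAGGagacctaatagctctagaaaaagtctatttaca
Kcnc2 site (chr10:111837647-111837746): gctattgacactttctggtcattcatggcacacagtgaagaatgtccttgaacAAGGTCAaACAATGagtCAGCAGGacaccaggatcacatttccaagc
Kazn site (chr4:141694409-141694508): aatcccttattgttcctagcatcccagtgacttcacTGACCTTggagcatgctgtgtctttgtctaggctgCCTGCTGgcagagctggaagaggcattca
All 3 were found in A6 and B8 and not in C4.

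Signal is given as the normalized tag count, the number of ChIP tags in a peak scaled by the peak caller HOMER to a common library size. From the equal steps between the values, and on HOMER's default scale of 10 M tags, depth was 23.3 M tags for A6, 14.6 M for B8, 13.6 M for C4, 12.9 M for NANOG, 31.5 M for OCT4, 15.7 M for MED1 and 15.0 M for MED12. The OCT4 and Mediator libraries were thus deeper than that of NANOG. The deposited lists held 2387 SIM2 peaks in A6, 2137 in B8 and 631 in C4, so C4 limited how many sites could be seen in 3 clones. For the factors they held 14815 NANOG, 2532 OCT4, 762 MED1 and 1071 MED12 peaks, and the OCT4 and Mediator lists reached a median of only 4.71 to 5.23 times the input. A NANOG-alone site is thus one where no OCT4 or Mediator peak was called, not one shown to lack them. The A6 list gives its total tags per peak scaled to the input and those of B8 and C4 are whole tags, so comparisons of size stay within each clone.

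NANOG-alone sites were found in all 3 clones less often than sites with both factors. All 3 clones held 85 of the 362 NANOG-alone sites (23.5%, 19.4 to 28.1%), where the share over all SIM2 sites was 28.2%. The share was 36.7% (31.3 to 42.4%) at sites with NANOG and OCT4, 32.9% (28.3 to 37.9%) at sites with Mediator and 16.6% (12.1 to 22.3%) at sites with none of the factors. The difference from the sites with NANOG and OCT4 was -13.2 percentage points (95% Newcombe interval -20.2 to -6.12), and from those with Mediator -9.4 points (-15.8 to -2.86). Among sites with NANOG tag counts from 6 to 15, a range chosen after seeing the data, the difference from sites with NANOG and OCT4 was -7.1 points (-16.7 to 2.21), an interval that includes 0. The rule found 88 such sites without A6, 95 without B8 and 348 without C4. A6 and B8 alone shared 263 of the NANOG-alone sites, A6 and C4 shared 11, and B8 and C4 shared 3. No NANOG-alone site had an EB3 peak within 10 kb.

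In A6 the SIM2 normalized tag count of the 359 NANOG-alone sites with an A6 peak ran from 8.6 to 34.3 with a median of 12.4. In B8 it ran from 1.4 to 19.1 with a median of 5.4 in 351 sites, and in C4 from 2.2 to 13.9 with a median of 5.1 in 99 sites. At sites with NANOG and OCT4 the A6 median was 13.7, and the medians were 5.4 in B8 and 5.1 in C4. The ratio of the medians was therefore 0.91 in A6 and 1.00 in both other clones. Tag counts in B8 and C4 take few distinct values, and the ratio of the mean counts was 0.89 in A6, 0.87 in B8 and 0.91 in C4. With means, NANOG-alone sites were thus lower in 3 of 3 clones. With NANOG tag counts held to 6 to 15 the ratios of means were 0.92, 0.91 and 0.93. No p is given for these ratios, since an exact sign-flip permutation test over 3 clones cannot go below p = 0.25. The ranges of the classes overlapped in every clone.

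**Figure D1:**
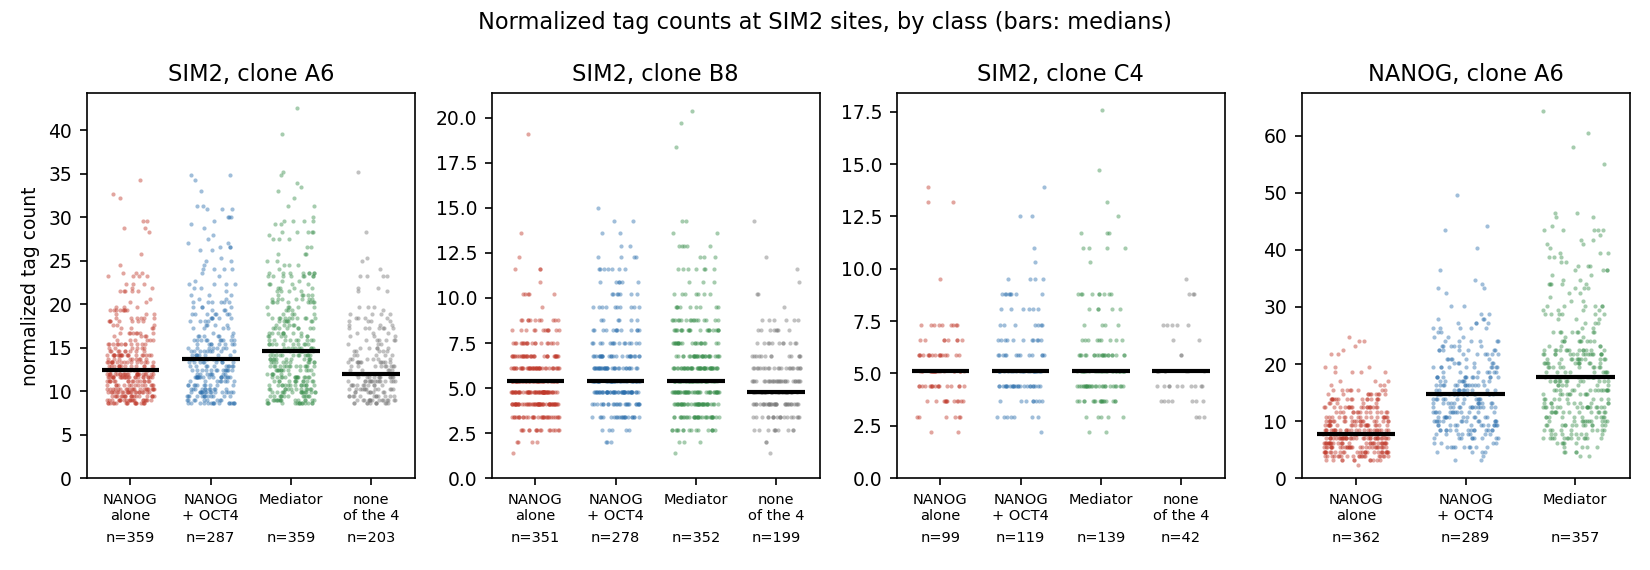
Normalized tag count (y axis) at each SIM2 site by class, for SIM2 ChIP in the 3 clones and for NANOG ChIP in A6; every point is a site and the black bars are medians. SIM2 counts overlap between the classes, with medians of 12.4 and 13.7 in A6 for NANOG alone and for NANOG with OCT4, while the NANOG medians are 7.7 and 14.7.

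A peak at least 8 times the input in A6 was present at 175 of 359 NANOG-alone sites (48.7%, 43.6 to 53.9%), where 55.8% of all SIM2 sites with an A6 peak had one. In B8 the count was 66 of 351 (18.8%, 15.1 to 23.2%) against 23.5% of all sites, and in C4 12 of 99 (12.1%, 7.07 to 20%) against 19.5%. Across the NANOG-alone sites the Spearman correlation of tag counts was 0.46 between A6 and B8 (348 sites) and 0.48 between A6 and C4 (96 sites). These values run across sites of the same libraries and describe them only.

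The strongest NANOG-alone site in the 3 clones was that of Elf3, an ETS factor of epithelia. Its normalized tag count was 32.6 in A6, 19.1 in B8 and 13.2 in C4. Its NANOG count was 11.6. The site was intergenic, 40690 bp downstream of the start of Elf3, and the nearest OCT4 or Mediator peak lay 633655 bp away. It was the highest of the NANOG-alone sites in B8. The site of Ccdc3 at -20544 bp (negative distances are upstream of the start) had 28.7 in A6, 13.6 in B8 and 13.2 in C4, with a NANOG count of 8.5. The site of Ckap4, which encodes a membrane protein of the endoplasmic reticulum, had 29.6 in A6, 12.3 in B8 and 9.5 in C4, with 7.7 for NANOG. Its nearest OCT4 or Mediator peak lay 135 bp away, just outside the limit. The site of Spata13, a guanine nucleotide exchange factor, had 34.3 in A6, the highest of all NANOG-alone sites there, 10.2 in B8 and 13.9 in C4. Its NANOG count was 7.7. The sites of Zc3h3 and Hmcn2 had 32.2 and 23.6 in A6, 8.8 and 10.2 in B8, and 6.6 and 7.3 in C4. All 6 sites were above the medians of their class in each clone, as their choice by rank requires. Their NANOG counts ran from 7.7 to 15.5 and were not part of that choice.

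NANOG signal was lower at these sites than at the sites it shared with OCT4. The normalized tag count of the NANOG peak ran from 2.3 to 24.8 with a median of 7.7 at the 362 NANOG-alone sites. At sites with NANOG and OCT4 it ran from 3.1 to 49.6 with a median of 14.7, a ratio of 0.52, and at sites with Mediator the median was 17.8. The rule used the presence of these peaks, so the values are a description. A NANOG peak at least 8 times the input was present at 219 NANOG-alone sites (60.5%, 55.4 to 65.4%), where 38.6% of all NANOG peaks reached this fold. The peak was among the highest 10% of all NANOG peaks at 28 NANOG-alone sites (7.73%), against 132 of the 289 sites with NANOG and OCT4 (45.7%). It was in the lower 50% at 111 sites (30.7%). The centres of the NANOG peak and the SIM2 site were a median of 36.5 bp apart, and 31 bp at sites with both factors.

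SIM2 and NANOG tag counts showed little correlation among the NANOG-alone sites. Their Spearman correlation was 0.00 for SIM2 in A6 (359 sites) and 0.07 in B8 (351 sites), although both A6 libraries came from the same cross-linked cells. Both peaks had to be called for a site to enter, which cuts off low counts of each. The correlations therefore describe these sites only and cannot show that the signals are unrelated. The highest NANOG counts were 24.8 at the site in Smarcc1, which encodes a core subunit of the BAF chromatin remodelling complex, and 24.0 at those of Barx2 and Myo5a. SIM2 counts at the Smarcc1 site were 20.6 in A6, 5.4 in B8 and 7.3 in C4. At the Barx2 site, named for a homeobox factor, they were 9.0 in A6 and 4.8 in B8, and at the Myo5a site, in a gene for a myosin motor, 9.4 and 4.1. The last 2 sites were near the lowest A6 count of the class, 8.6. The lowest NANOG counts were 2.3 at the promoter of Dlg5, 3.1 at an intronic site of Stat4 and 3.1 at a site 266488 bp from the start of Epb4.1l2. Their SIM2 counts in A6 were 18, 14.2 and 9.0, and in B8 2.7, 4.1 and 4.1.

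Few of the NANOG peaks without OCT4 or Mediator had a SIM2 site. Of 12034 such peaks in A6, 357 (2.97%, 2.68 to 3.29%) lay within 100 bp of a SIM2 site, against 16.7% (15 to 18.5%) of NANOG peaks with OCT4 and 34.8% (31.9 to 37.7%) of those with Mediator. A SIM2 peak of any single clone lay at 1015 of the peaks alone (8.43%). The share with a SIM2 site was 0.715% without A6 and 0.773% without B8, and 6.43% among NANOG peaks at least 8 times the input. At 7 NANOG-alone sites the NANOG peak itself lay within 100 bp of an OCT4 or Mediator peak that was farther from the site, and these are not among the peaks counted as alone. When all NANOG peaks were split into 10 equal groups by tag count, the share with a SIM2 site among peaks alone went from 1.05% (0.635 to 1.72%) in the lowest group to 8.38% (6.7 to 10.4%) in the ninth and 7.69% (5.34 to 11%) in the highest. Among peaks with OCT4 or Mediator it was 6.12% (2.1 to 16.5%) in the lowest and 31.3% (28.7 to 34.1%) in the highest. The intervals of the 2 kinds of peak did not overlap in any of the 10 groups.

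**Figure D2:**
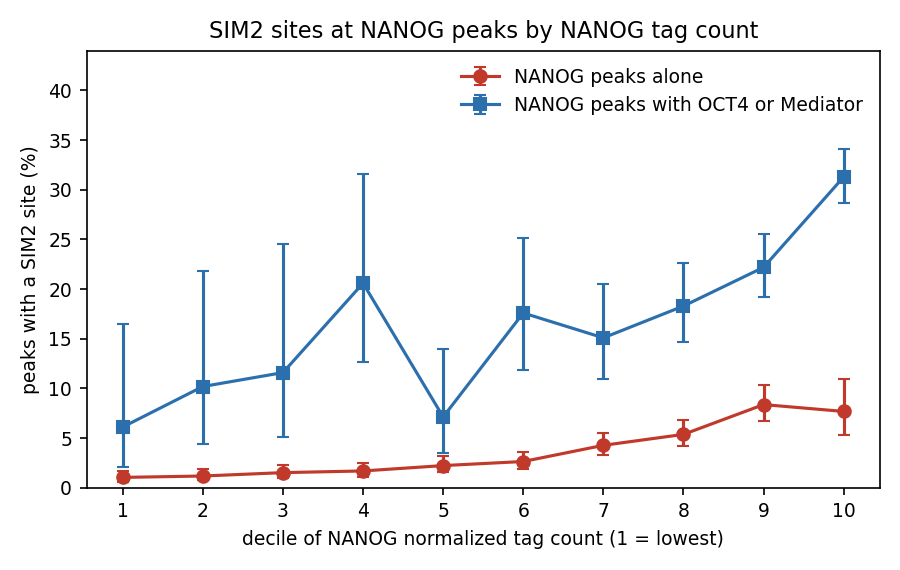
Share of NANOG peaks with a SIM2 site (y axis, percent, with 95% Wilson intervals) in 10 equal groups of NANOG normalized tag count (x axis, 1 is the lowest), for NANOG peaks alone and for those with OCT4 or Mediator. The share at peaks alone stays at or below 8.38%, and the share at peaks with OCT4 or Mediator reaches 31.3%.

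The limit of the rule cut through few sites. The NANOG peak overlapped the 100 bp of 331 NANOG-alone sites and lay 1 to 99 bp from 31. An OCT4, MED1 or MED12 peak lay within 200 bp of 12 of them and within 1000 bp of 24. Just inside the class, a MED12 peak lay 101 bp from the site of Rapgef5 and 104 bp from that of Rmnd5b, and an OCT4 peak 109 bp from that of Tmcc3. Just outside it, a MED12 peak lay 94 bp from the site of Msx2, 93 bp from that of Gpd2 and 89 bp from that of Pla2g10. SIM2 counts in A6 were 10.3, 24.5 and 13.3 for the first 3 and 15.9, 10.3 and 13.7 for the last 3. In B8 they were 3.4, 7.5 and 7.5 for the first 3 and 2.7 for each of the last 3. The A6 counts of the sites inside and outside the limit overlapped and the B8 counts did not, and C4 had a peak at 2 of the first 3 and 0 of the last 3. The MED12 peaks concerned were weak, from 4.27 to 5.8 times the input.

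Most NANOG-alone sites were far from OCT4 and Mediator. An OCT4, MED1 or MED12 peak centre lay within 10 kb of 57 of them (15.7%, 12.4 to 19.9%) and within 100 kb of 156 (43.1%, 38.1 to 48.2%). With every list held to peaks at least 8 times the input, the share within 10 kb was 4.23% (1.95 to 8.91%). Of the 11019 NANOG peaks alone that touched no SIM2 peak of any clone, 8.5% (8 to 9.04%) had such a peak within 10 kb and 35% (34.1 to 35.9%) within 100 kb. At SIM2 sites with none of the factors the shares were 19.5% (14.7 to 25.5%) and 41.5% (34.9 to 48.3%). Within 10 kb the NANOG-alone sites differed by 7.24 points from the NANOG peaks without SIM2 (95% Newcombe interval 3.81 to 11.4) and by -3.77 points from the sites with none (-10.6 to 2.59). For Mediator alone the share within 10 kb was 9.67% (7.03 to 13.1%), against 4.3% (3.94 to 4.7%) at NANOG peaks without SIM2 (5.37 points, 2.7 to 8.87). The same lists excluded sites at 100 bp, so these shares and differences are a description. Exclusion was measured from the 100 bp of each site, but from the whole NANOG peak for the peaks without SIM2. At 7 NANOG-alone sites (1.93%) the NANOG peak itself lay within 100 bp of such a peak, so the 2 groups were not screened alike.

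**Figure D3:**
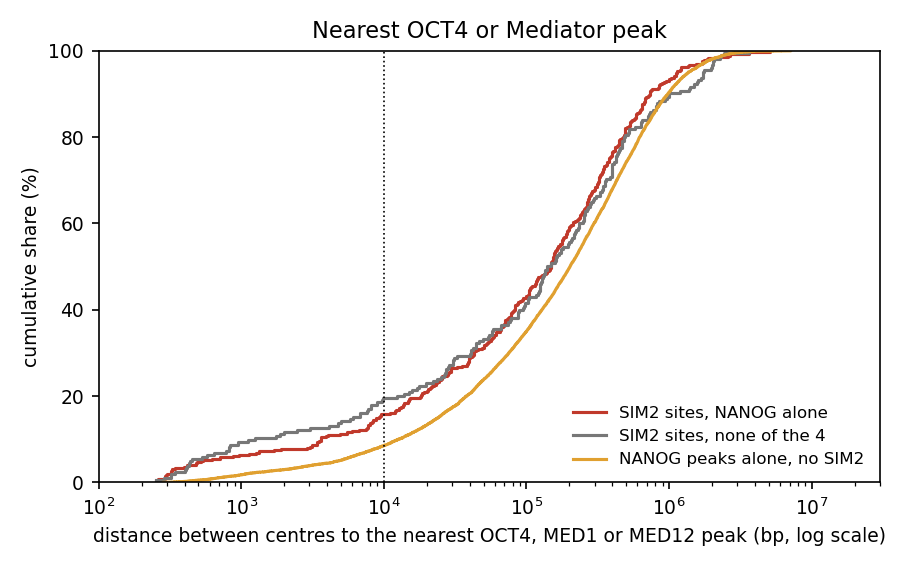
Cumulative share (y axis, percent) of NANOG-alone SIM2 sites, of SIM2 sites with none of the 4 factors and of NANOG peaks alone without SIM2 by the distance between centres to the nearest OCT4, MED1 or MED12 peak (x axis, bp, log scale); the dotted line is at 10 kb. At 10 kb the NANOG-alone sites have reached 15.7%, between 19.5% for the sites with none and 8.5% for the NANOG peaks.

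Another SIM2 site lay within 10 kb of 28 NANOG-alone sites (7.73%, 5.41 to 11%), or of 2.27% without A6, 0% without B8 and 2.11% with every list at 8 times the input or more. The share was 3.46% (1.89 to 6.25%) at sites with NANOG and OCT4, 15.6% (12.3 to 19.7%) at sites with Mediator and 12.7% (8.8 to 17.9%) at sites with none. The difference was 4.27 points (0.639 to 7.85) from the sites with NANOG and OCT4 and -7.88 points (-12.6 to -3.23) from those with Mediator. The nearest such neighbour was another NANOG-alone site in 12 cases, a site with none of the factors in 8, a site with Mediator in 5 and a site with NANOG and OCT4 in 3. A further NANOG peak lay within 10 kb of 141 NANOG-alone sites (39%, 34.1 to 44.1%), and of 29.6% (28.8 to 30.5%) of the NANOG peaks alone without SIM2 (9.31 points, 4.35 to 14.5).

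On the protein-coding genes of GENCODE vM1, 206 NANOG-alone sites (56.9%, 51.8 to 61.9%) were intergenic, 143 (39.5%, 34.6 to 44.6%) intronic, 3 exonic and 10 (2.76%, 1.51 to 5.01%) in promoters, taken as 1000 bp upstream to 300 bp downstream of a start. Promoters held 11.2% (7.59 to 16.3%) of the sites with none of the factors, a difference of -8.46 percentage points for the NANOG-alone sites (95% Newcombe interval -13.7 to -4.19). Against sites with NANOG and OCT4, where the promoter share was 2.77%, no difference was detectable (-2.89 to 2.62 points). A start lay within 100 kb of 295 NANOG-alone sites (81.5%, 77.2 to 85.2%), and the median distance to the nearest start was 22849 bp. At sites with NANOG and OCT4 the share was 76.5% and the median distance 34257 bp (difference of shares 5.02 points, -1.24 to 11.4). At sites with none of the factors they were 90.2% and 13236 bp (-8.75 points, -14.2 to -2.69), so NANOG-alone sites were farther from genes than these. Sites with Mediator had 86.8% and 17513 bp (-5.36 points, -10.7 to -0.0408). Over all SIM2 sites the share was 83.3% and the median 20837 bp, close to the values of the NANOG-alone sites.

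The promoter sites with the most SIM2 tags in A6 were those of Pde4d, Dlg5, Khsrp, Armc9 and Jak3. The Pde4d site, at -786 bp from the start of a gene for a cAMP phosphodiesterase, had 19.3 in A6, 6.1 in B8 and a NANOG count of 3.1. The Dlg5 site at -348 bp, in the promoter of a gene for a scaffold protein, had 18 in A6 and 2.7 in B8. The Khsrp site at -518 bp was the only 1 of these 5 found in all 3 clones, with 17.2 in A6, 6.8 in B8, 6.6 in C4 and a NANOG count of 9.3. KHSRP is an RNA-binding protein of splicing and mRNA decay. The Armc9 site at -970 bp had 15.4 in A6, 5.4 in B8 and 10.8 for NANOG, and held both a POU and a SOX pattern. The Jak3 site, 118 bp downstream of the start of a gene for a cytokine receptor kinase, had 12.0 in A6, 4.8 in B8 and 4.6 for NANOG.

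Genes of 7 lists were searched for NANOG-alone sites within 100 kb of a start, where 3.94% of all 22238 protein-coding genes had one and 12.2% had a SIM2 site of any class. Of 29 regulators of naive pluripotency, 2 had a NANOG-alone site (6.9%, 1.91 to 22%), although 18 had some SIM2 site (62.1%). The naive genes had SIM2 sites mainly of the class with Mediator, which lay near 16 of the 29 where 3.92% of all genes had one. Esrrb, an orphan nuclear receptor of the naive state, had an intronic NANOG-alone site at -14899 bp from its nearest start, where SIM2 had 13.7 in A6 and 8.2 in B8, and NANOG 12.4. It was not found in C4.

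Of 15 genes of the formative and primed state, 3 had a NANOG-alone site (20%, 7.05 to 45.2%) and 7 some SIM2 site. Sites with NANOG and OCT4 also lay near 3 of the 15 (2.63% of all genes). Sites with Mediator lay near 2 (3.92% of all genes) and sites with none of the factors near 2 (2.95%). The list was drawn up with results of these data known, so this is a description. The 3 genes with a NANOG-alone site were Sox11, a SOX factor of neural progenitors, Foxd3, a forkhead factor of the epiblast, and Grhl2, a grainyhead factor of epithelia. The Sox11 site, 30632 bp downstream of its start, had 12.0 in A6, 6.8 in B8 and 6.2 for NANOG. The Foxd3 site, 14056 bp downstream, had 11.6 in A6, 2.7 in B8 and 7.7 for NANOG. The site within 100 kb of Grhl2 lay in an intron of Ncald and had 19.7 in A6, 5.1 in C4 and 10.1 for NANOG, with no peak in B8.

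Of 41 signalling genes, 7 had a NANOG-alone site (17.1%, 8.53 to 31.3%) and 16 had any SIM2 site. Sites with Mediator lay near 8 of them (3.92% of all genes), sites with none of the factors near 3 (2.95% of all genes) and sites with NANOG and OCT4 near 1 (2.63% of all genes). The share of genes with a NANOG-alone site was above the 3.94% of all genes, but the lists were drawn up with results of these data known, so this is a description. Stat3, the effector of LIF, had a site at -51730 bp with 15.9 in A6, 6.1 in B8 and 10.1 for NANOG. The start nearest to that site was of Atp6v0a1, at -18182 bp. Tcf7l1, a repressor in the WNT pathway, had an intronic site 808 bp downstream of a start with 13.7 in A6, 6.8 in B8 and 7.0 for NANOG. Id2, an inhibitor of bHLH factors and a BMP target, had a site at -28693 bp with 12.0 in A6, 4.1 in B8 and 3.9 for NANOG. Etv5, an ETS factor induced by FGF, had a site at -14589 bp with 11.6 in A6, 4.8 in B8 and 7.0 for NANOG. The other 3 genes were Acvr1b, Ptch1 and Dusp4, and the start nearest to the Acvr1b site was of Ankrd33.

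The neural development list had 3 of 42 genes with a NANOG-alone site (7.14%, 2.46 to 19%) and 5 with any SIM2 site. Epha4, an ephrin receptor of axon guidance, had 3 such sites, at 2024, 17994 and 53111 bp downstream of its nearest start, with SIM2 counts in A6 of 11.6, 13.7 and 12.0 and in B8 of 4.1, 6.1 and 4.1. All 3 were intronic and had NANOG counts of 5.4, 7.0 and 6.2. Nrp2, a semaphorin receptor, had a site at -38007 bp with 13.3 in A6 and 6.8 in B8. Pax6, a paired-box factor of eye and brain that was picked out after its values were seen, had a NANOG-alone site in its promoter at -635 bp with only 9.0 in A6 and 5.4 in B8 but 17.0 for NANOG. Among 31 chromatin regulators, 2 had such a site (6.45%, 1.79 to 20.7%), Smarcc1 and Arid1b, both encoding BAF subunits. The Arid1b site at -45752 bp had 15.9 in A6, 11.6 in B8 and 12.4 for NANOG. Among 24 early lineage factors 2 had a NANOG-alone site, Elf3 and Hnf4a, a nuclear receptor of liver and gut. The Hnf4a site at -43263 bp had 12.0 in A6 and 4.8 in B8, and its nearest start was of 2310001K24Rik, at -9046 bp. Of the 22 bHLH-PAS genes, the family of SIM2 itself, 0 had a NANOG-alone site (0%, 0 to 14.9%). The shares of these last lists had intervals that included the 3.94% of all genes.

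Exact motif matches on either strand were counted in 200 bp windows centred on the sites. The patterns were ATGCAAA for the POU part of the octamer, CATTGT for SOX, CCATTA for the homeodomain of NANOG, CCTGCTG for ZIC, CCNCACC for KLF, AAGGTCA for ESRRB, CATTCC for TEAD, TACGTG for SIM and ARNT (called CME), and ACGTG, the core that TACGTG and CACGTG share. A composite of CNTTGT, 1 base and ATGCNAA stood for SOX2 and OCT4 side by side. The second motif was written from the logo of the study's own second motif at SIM2 sites, for which no known factor was listed. No weight matrix was used, so its shares depend on how the logo was read. Of the 362 NANOG-alone sites 293 (80.9%) held at least 1 pattern and 69 (19.1%) held none. A match is a stretch of letters and not evidence of a bound factor.

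POU matches were less frequent than at sites with NANOG and OCT4 but no Mediator. That class was chosen by its OCT4 peaks, and OCT4 is a POU factor, so the difference is a description. ATGCAAA was found at 14.6% (11.4 to 18.7%) of the NANOG-alone sites and at 25.3% (20.6 to 30.6%) of the sites with NANOG and OCT4, a difference of -10.6 percentage points (95% Newcombe interval -16.9 to -4.47). Among sites with NANOG tag counts from 6 to 15 it was -8.13 points (-16.8 to -0.00118). With every list at 8 times the input or more the direction turned, to 4.54 points with an interval that includes 0 (-12.6 to 17.6). Sites with Mediator held ATGCAAA in 18.1% (14.5 to 22.4%) and sites with none of the factors in 17.6% (13 to 23.4%). The differences of the NANOG-alone sites from these were -3.44 points (-8.82 to 1.96) and -2.92 points (-9.57 to 3.18). Both intervals include 0. NANOG peaks alone without SIM2 held ATGCAAA in 12.7% (12.1 to 13.3%), and windows 10 kb to either side of the NANOG-alone sites in 4.56% (3.26 to 6.33%). The composite was found at none of the NANOG-alone sites (0%, 0 to 1.05%) and at 6 of the 289 sites with NANOG and OCT4 (2.08%, 0.955 to 4.45%). SOX matches did not differ detectably between these classes, with 18.5% against 23.2% (-4.68 points, -11 to 1.56).

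ZIC matches were more frequent. CCTGCTG was found at 23.8% (19.7 to 28.4%) of the NANOG-alone sites, 12.5% (9.14 to 16.8%) of the sites with NANOG and OCT4, 17.8% (14.2 to 22.1%) of those with Mediator and 15.1% (10.9 to 20.7%) of those with none. The difference from the sites with NANOG and OCT4 was 11.3 points (5.36 to 17). NANOG peaks alone without SIM2 held it in 13.9% (13.3 to 14.5%) and the flanking windows in 5.94% (4.44 to 7.9%). ESRRB matches were found at 16% (12.6 to 20.2%) of the NANOG-alone sites, against 11.8% (8.54 to 16%) with NANOG and OCT4 (4.26 points, -1.18 to 9.5) and 7.32% (4.48 to 11.7%) with none (8.71 points, 3.13 to 13.7). A ZIC or an ESRRB match was present at 128 NANOG-alone sites (35.4%), and both at 16. The homeodomain pattern of NANOG was found at only 7.73% (5.41 to 11%), against 14.2% (10.6 to 18.7%) with NANOG and OCT4 and 9.12% (7.23 to 11.4%) in the flanking windows.

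The second motif, ACGTG and TACGTG were more frequent at NANOG-alone sites than at NANOG peaks without SIM2. The second motif was found at 10.2% (7.51 to 13.8%) of the sites and at 1.53% (1.32 to 1.78%) of those peaks, a difference of 8.69 points (5.96 to 12.2). ACGTG was found at 14.9% (11.6 to 19%) and 5.08% (4.69 to 5.51%), a difference of 9.83 points (6.51 to 13.9), and TACGTG at 4.42% (2.74 to 7.06%) and 1.05% (0.878 to 1.26%), a difference of 3.37 points (1.67 to 6.01). The windows 10 kb to either side held the second motif in 0.967%, ACGTG in 9.12% (7.23 to 11.4%) and TACGTG in 2.49% (1.58 to 3.9%), so for ACGTG and TACGTG the NANOG peaks without SIM2 were below these windows. The differences from the windows were 9.33 points (6.57 to 12.9), 5.56 points (2.04 to 9.74) and 2.18 points (0.375 to 4.87). The second motif was found in the study at SIM2 sites including these, which sets its direction. Within the SIM2 sites, ACGTG was less frequent here than at the sites with none of the factors, which held it in 22.4% (17.3 to 28.6%; -7.52 points, -14.5 to -0.959). The second motif and ACGTG occurred together at 3 NANOG-alone sites, and 88 (24.3%) held at least 1 of them.

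**Figure D4:**
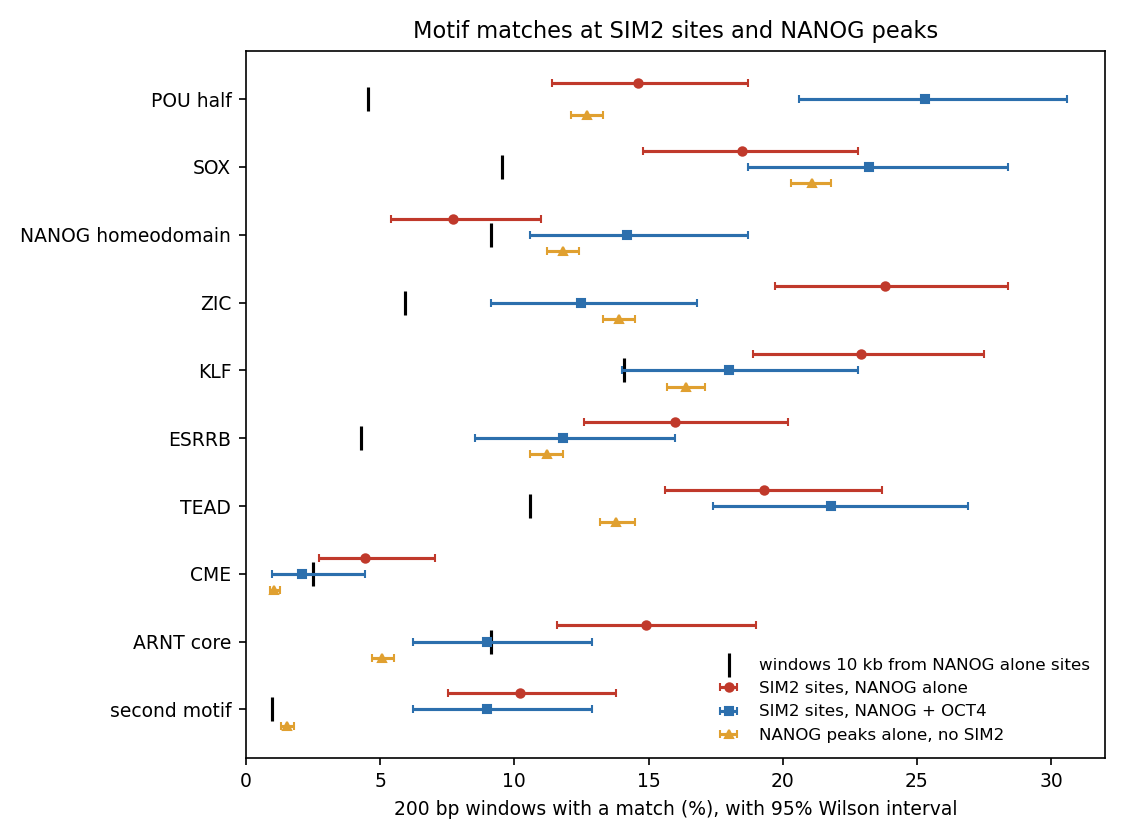
Share of 200 bp windows with a match (x axis, percent, with 95% Wilson intervals) for 10 patterns, at NANOG-alone SIM2 sites, at SIM2 sites with NANOG and OCT4 and at NANOG peaks alone without SIM2, with black ticks for windows 10 kb from the NANOG-alone sites; ARNT core is the pattern ACGTG. POU matches lie at 14.6% and 25.3% in the first 2 groups and ZIC matches at 23.8% and 12.5%.

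Base composition differed between these groups. The median GC content of the 200 bp was 49% at NANOG-alone sites, 45% at sites with NANOG and OCT4, 46% with Mediator, 52.5% with none of the factors and 42.5% at NANOG peaks alone without SIM2. Among windows of 45 to 55% GC, a range chosen after seeing these values, 279 NANOG-alone sites were left. There ZIC matches were found at 25.8% of them and at 16.4% of 146 sites with NANOG and OCT4 (9.37 points, 1.01 to 16.8), but at 24% of 3858 NANOG peaks alone without SIM2 (1.8 points, -3.17 to 7.4). The excess of ZIC matches over NANOG peaks without SIM2 was thus not detectable at like GC content, nor was that of ESRRB matches (1.4 points, -2.66 to 6.33). For POU the difference from sites with NANOG and OCT4 was -7.84 points (-16.3 to -0.0198) in this range. The second motif kept a difference of 7.61 points (4.76 to 11.6) from NANOG peaks without SIM2, ACGTG one of 8.99 points (5.18 to 13.7) and TACGTG one of 3.57 points (1.62 to 6.73). ACGTG and TACGTG hold a CG dinucleotide, and the GC range does not match the number of CG. Over all windows its mean was 2.65 at NANOG-alone sites and 1.63 at NANOG peaks without SIM2. It was 1.79 with NANOG and OCT4, 2.27 with Mediator and 3.94 with none of the factors. Whether the ACGTG and TACGTG differences hold at like CG number was not tested.

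Matches of the second motif and of ACGTG lay close to the centres of the sites. Of 38 matches of the second motif 57.9% were within 25 bp of the centre, where an even spread over the window would give 25%, and for ACGTG it was 48.5% of 66. POU matches had 43.6% of 55 and ZIC matches 41.6% of 101 in the same central stretch. ESRRB matches had 30% of 60 and KLF matches 25.2% of 111, close to an even spread.

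**Figure D5:**
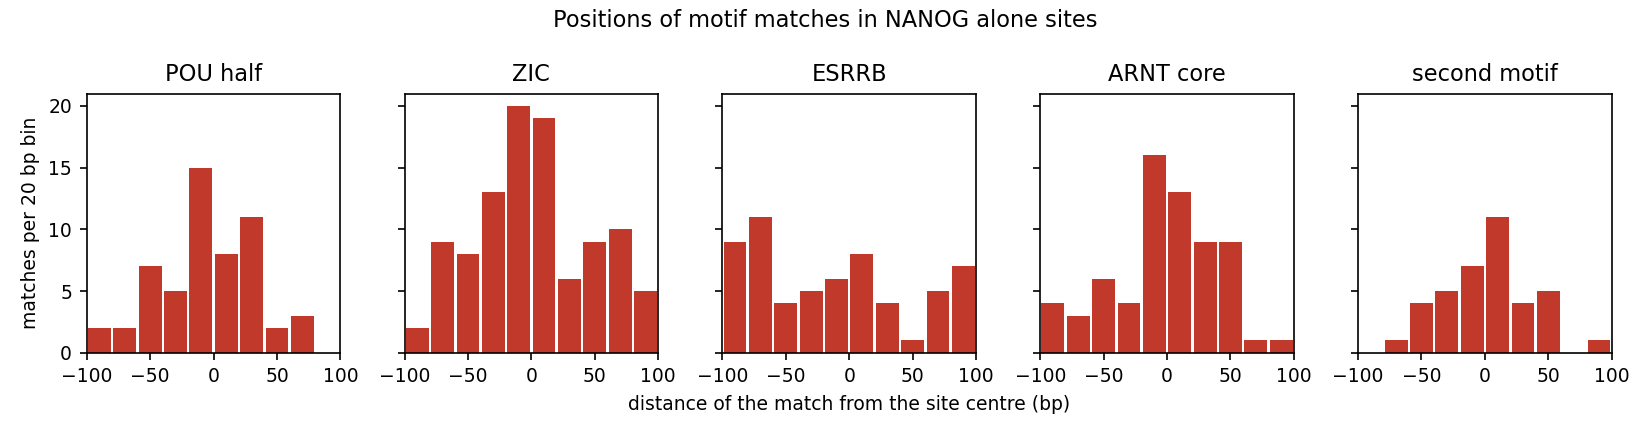
Number of matches per 20 bp bin (y axis) by distance from the centre of the NANOG-alone site (x axis, bp) for 5 patterns. The second motif, ACGTG (ARNT core), POU and ZIC matches are most frequent near the centre, and the 60 ESRRB matches are spread over the window.

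Differences in SIM2 tag count between NANOG-alone sites with and without a pattern varied with the pattern and, for some patterns, with the use of means or medians. Sites with TACGTG had mean counts of 15.17 in A6 (16 sites), 6.51 in B8 (14 sites) and 5.86 in C4 (5 sites). Sites without it had 13.49, 5.46 and 5.35. With the POU pattern the medians were 13.1 against 12 in A6, 5.4 against 4.8 in B8 and 5.1 in both groups in C4. The means with that pattern were 14.36 against 13.43 in A6, 5.77 against 5.45 in B8 and 5.29 against 5.39 in C4. Mean counts were lower in all 3 clones with the SOX pattern (12.58 against 13.79 in A6) and the ZIC pattern (13.19 against 13.68). Sites with ACGTG had a median of 14.2 in A6 (54 sites) against 12 without, and with and without it 5.4 in B8 and 5.1 in C4. Their means were 14.49 against 13.41 in A6, 5.67 against 5.47 in B8 and 5.12 against 5.42 in C4. Sites with the second motif had a median of 12.4 in A6, the same as those without. Their means were higher in all 3 clones, 14.36 against 13.48 in A6, 5.57 against 5.49 in B8 and 5.85 against 5.30 in C4. They were found in all 3 clones in 35.1% of 37 cases against 22.2% of the other 325 (13 points, -1.18 to 29.6). For the ZIC pattern the A6 medians were 12.4 with and without it, and the NANOG medians 8.9 and 7.7. The homeodomain pattern went with a NANOG median of 10.8 at 28 sites against 7.7 at the others.

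Most NANOG-alone sites did not resemble another NANOG peak in sequence. The 200 bp of 36 NANOG-alone sites (9.94%, 7.27 to 13.5%) resembled another NANOG peak over at least 100 bp at 80% identity or more, and 19 (5.25%) resembled at least 20 such peaks, up to 168. The share with at least 1 like peak was 16.3% (12.5 to 21%) at sites with NANOG and OCT4, 16.4% (13 to 20.6%) with Mediator and 2.44% (1.05 to 5.58%) with none. Sites with none of the factors hold no NANOG peak, so likeness among themselves would not count and their share is not a like measure. The difference from the sites with NANOG and OCT4 was -6.32 percentage points (-11.7 to -1.14). Of the 22 sites named above by rank of SIM2 or NANOG counts, promoter or motif, 0 resembled another NANOG peak in this way.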

How the data were processed

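FLAG ChIP-seq of 3 Sim2-expressing ES clones and the EB3 line, and NANOG, OCT4, MED1 and MED12 ChIP-seq of clone A6, were used as 8 peak lists, called by the authors per library. BWA, HOMER and mm9 are named in the submitters' processing notes. By the study's methods, reads were mapped with BWA, duplicates were dropped and HOMER called peaks against each input at its defaults. The lowest fold listed was 4.01 to 4.13, so weaker sites are not seen. The lists that the authors deposited give for each peak a normalized tag count (a signal scaled to library size), a ratio of ChIP to input tags (the fold) with a p-value, a findPeaks score and a focus ratio (a fraction). The score, p-value and focus ratio were not used for any result.

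Sites, classes and the window of 100 bp followed the rule given at the opening, with gaps under 100 bp counted as within it. Genes came from GENCODE vM1 on NCBIM37, the assembly of mm9, with all transcripts of protein-coding genes. Of the listed genes, 3 were not matched by symbol and were left out. Shares carry 95% Wilson intervals and differences 95% Newcombe intervals. Sites of 1 library are not independent replicates, so no p was computed. Sequence likeness used BLAST 2.17.0 (at least 100 bp at 80% identity, NANOG peaks within 1000 bp of the site left out). Scripts ran in Python 3.11.15 (pandas 2.3.3, numpy 2.4.6, pysam 0.24.0, scipy 1.17.1, matplotlib 3.10.9). Site calling, motif search and intervals were tested on simulated data.

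Sites were named by rule: the 6 best ranked in all 3 clones, the 3 highest and 3 lowest NANOG counts, the 5 promoter sites with most tags in A6, up to 4 sites per gene list, the 3 nearest the limit on either side, and the 4 with TACGTG and most tags. Members, gene lists and motifs were chosen with earlier results of these data known. The bands of GC content and NANOG count and the ratio of means were added after seeing the data. The site of 1 listed gene is counted but not reported here.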

Additional observations from a re-analysis of the deposited data

How the results depend on the processing

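Of 181 alternative values for the main results, 140 stayed within the interval or spread of the value reported, 40 moved beyond it and 1 reversed. The cause of the shifts was not tested, beyond the fewer peaks or sites that a stricter fold or a missing clone leaves. With every list at 8 times the input or more, 142 sites were NANOG-alone (54.4%), the SIM2 ratios to sites with NANOG and OCT4 were 0.79 (A6), 0.86 (B8) and 0.92 (C4), the POU difference turned to 4.54 points (-12.6 to 17.6), the ZIC difference was 17.6, and OCT4 or Mediator lay within 10 kb of 4.23% and another SIM2 site of 2.11%. With the NANOG list alone at that fold the values were 219 sites (17.8%), a NANOG ratio of 0.69, and 6.43% of NANOG peaks alone with a SIM2 site. That share was 2.55% with merging at 50 bp and 3.3% with a window of 1000 bp. OCT4 or Mediator lay within 10 kb of 11.6% and 10.9% of the sites with windows of 500 and 1000 bp, and within 5 and 25 kb of 11.3% and 23.8%, and another SIM2 site within these distances of 5.25% and 12.4%. The SIM2 ratios in B8 and C4 were 0.93 and 0.93 by fold, 0.87 and 0.91 by means, and 0.91 and 0.93 by means in the NANOG band. With all genes, 88.1% of the sites had a start within 100 kb, at a median of 14757 bp. Leaving out 1 clone gave 88 to 348 sites (24.7 to 29.8% of SIM2 sites), with 88 without A6 and 95 without B8, where every site must be in the short C4 list. It also gave B8 ratios of 0.90 to 1.00, starts within 100 kb of 81.9 to 87.5% at medians of 16337 to 22434 bp, 0.715 to 2.86% of NANOG peaks alone with a site, and another SIM2 site near 0 to 6.9%. No paired analysis was possible because the results come from no test, and A6 is the only clone that the SIM2 and factor lists share. The interval of -7.1 points for the 3-clone share in the NANOG band includes 0. OCT4 or Mediator peaks below the calling limit are not seen. By the estimate above these libraries had 15.0 to 31.5 M tags and that of NANOG 12.9 M. Their lists had median folds of 4.71 to 5.23, and that of NANOG 6.91. How many OCT4 or Mediator peaks were missed was not tested.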
